A study of Mus musculus with 12 samples.

Results

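The genes described here are 9 genes of the heart's response to fasting and to fatty acids, most of them known targets of the peroxisome proliferator-activated receptors (PPARs): Pdk4, Angptl4, Ucp3, Acot1, Acot2, Cpt1a, Plin2, Plin5 and Ppargc1a. They were taken by symbol from 55885 genes listed for 12 mouse hearts, and all 9 passed the filter that left 13815 genes for testing. The study asked how the heart responds to cisplatin (CDDP), a platinum compound used against tumors, and what loss of STING, the adaptor through which cytosolic DNA triggers inflammatory signaling, does to that response. Hearts came from male mice in 4 groups of 3, of the strain given as C57BL/6 in the labels and as C57BL/6J in the methods. The mice are given as 8 weeks old when used for the experiments. The Saline and CDDP groups were wild type, and the STING-/- and STING-/-+CDDP groups carried the Tmem173-/- genotype. In the CDDP and STING-/-+CDDP groups, cisplatin at 6 mg/kg was given intraperitoneally on days 1, 8 and 15. By the methods, the hearts of all groups were collected after the last injection, so at a later age. The labels call the other hearts untreated, and the methods describe saline in their place. The knockout was of the whole body and not limited to cardiomyocytes.

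PPARs are nuclear receptors that bind fatty acids and, paired with a retinoid X receptor (RXR), switch on genes for the use of fat. In a fasting animal, fatty acids released from adipose tissue reach the heart, and these genes help it burn fat, spare glucose and hold lipid safely in droplets. They are among the usual readouts of fatty acid supply and PPARα activity in heart muscle.

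Expression was given as TPM, the abundance of transcripts in a unit that corrects for gene length and scales each heart to the same sum, so the depth behind a value is unknown. Differences were tested on the log2(TPM + 1) scale, which understates the change of genes with low TPM, with limma in 1 model of the 12 hearts and Benjamini-Hochberg adjustment over all tested genes. A gene was called where the adjusted p was under 0.05. Each heart had from 19680 to 21024 genes above 0. Sting1, the gene for STING, was at 6.50 to 12.3 TPM in the Saline hearts, 5.62 to 22.1 in CDDP, 2.87 to 5.96 in STING-/- and 3.37 to 4.67 in STING-/-+CDDP hearts, so its transcript was listed in every heart, with STING-/- mice below the wild-type mice of the same treatment. Cardiomyocyte markers summed to between 23360 and 48443 TPM. Some hearts stood apart in markers of other cells. The second Saline heart held 39132 TPM of 5 atrial markers, against 310 to 14625 elsewhere, with the third STING-/-+CDDP heart at 331. The first CDDP heart held 1120 TPM of 7 neutrophil markers, against at most 90.8 elsewhere. The brown fat gene Ucp1 was at 13.9 and 26.2 TPM in the first and the second STING-/- hearts and at most 0.21 in the others. Red cell markers, between 4146 and 9317 TPM in Saline hearts, were between 41.9 and 1465 in all the others.

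The promoters of 8 of the 9 genes, all but Angptl4, had an entry among RefSeq promoter sequences (GRCm38.p6), from 250 bases before to 50 bases after the start. These gave 9 windows, of which 2 were for Plin5. The PPAR and RXR pair binds 2 copies of the 6-base core AGGTCA with 1 base between them. The windows of Ucp3 and Plin2 are shown because they held the closest matches to this repeat among the 8 genes with an entry, and that of Plin5 because this gene was called. They lie at chr17:56117499-56117798 (Plin5, minus strand), chr7:100472741-100473040 (Ucp3, plus strand) and chr4:86670010-86670309 (Plin2, minus strand), and are written 5′ to 3′ along the gene. Capitals mark each AGGTCA core on either strand and the windows that match the repeat with at most 2 mismatches.
Plin5: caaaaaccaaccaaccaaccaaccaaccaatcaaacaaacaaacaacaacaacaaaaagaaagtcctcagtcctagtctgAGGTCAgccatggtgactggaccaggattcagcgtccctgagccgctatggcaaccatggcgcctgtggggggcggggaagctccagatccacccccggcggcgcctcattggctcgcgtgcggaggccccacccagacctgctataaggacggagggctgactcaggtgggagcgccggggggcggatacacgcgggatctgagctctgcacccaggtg
Ucp3: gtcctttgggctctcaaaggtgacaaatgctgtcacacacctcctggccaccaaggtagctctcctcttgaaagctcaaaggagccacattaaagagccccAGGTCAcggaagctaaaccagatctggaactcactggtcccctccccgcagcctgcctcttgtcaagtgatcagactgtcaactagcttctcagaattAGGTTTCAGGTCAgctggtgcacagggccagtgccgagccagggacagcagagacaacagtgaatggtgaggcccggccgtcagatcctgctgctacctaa
Plin2: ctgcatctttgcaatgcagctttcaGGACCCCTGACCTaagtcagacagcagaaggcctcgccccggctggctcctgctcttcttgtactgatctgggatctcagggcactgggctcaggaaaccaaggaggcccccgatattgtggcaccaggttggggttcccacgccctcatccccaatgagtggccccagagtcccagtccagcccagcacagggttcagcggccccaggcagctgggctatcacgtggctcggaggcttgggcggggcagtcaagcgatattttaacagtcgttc
The capitals near the end of the Ucp3 window and those near the beginning of the Plin2 window, where the repeat lies on the opposite strand, each matched the repeat with 2 mismatches. Plin5 had a second RefSeq start, and the best match in each of its windows had 3 mismatches. A match with at most 2 mismatches stood in 2 of the 9 windows and in 3.86% of 32851 mouse promoter windows of the same length. The core stood in 5 of 9 and in 16.3%. An exact repeat was in 0 of 9 and in 0.0396%, and one with at most 1 mismatch in 0 of 9 and in 0.554%. Neither TCAAGGTCA, a site for estrogen-related receptors, nor GTAAACA, a site for FoxO factors, stood in any of the 9 windows on either strand. These letters were found in 0.423% and 3.65% of all windows. The repeat and the TCAAGGTCA site contain the core, so these counts overlap.

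Pdk4 encodes a kinase that blocks pyruvate dehydrogenase and so spares glucose when fat is burned. It lies on GRCm38 chr6:5483351-5496309 (minus strand) and had the highest TPM of the 9 genes in every group. Saline hearts held 190.5, 98.5 and 162 TPM of Pdk4, and CDDP hearts 255, 432 and 113 TPM. STING-/- hearts held 86.8, 128 and 277 TPM and those of STING-/-+CDDP 510, 461 and 821 TPM. Every STING-/-+CDDP heart was above each of the 9 other hearts, whose groups overlapped with each other. The group means were 150.3 ± 47.1 (SD, n = 3) in Saline, 267 ± 160 in CDDP, 164 ± 100.3 in STING-/- and 597 ± 195 in STING-/-+CDDP. On the log2 scale, STING-/-+CDDP exceeded STING-/- by 1.98 (standard error 0.50, adjusted p = 0.0967) and CDDP by 1.31 (adjusted p = 0.178), and neither difference passed.

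Angptl4 (chr17:33773750-33781830, minus strand) encodes a secreted inhibitor of lipoprotein lipase, and its induction in heart muscle is a sensitive sign of fatty acid supply. It was at 17.9, 4.85 and 11.9 TPM in Saline hearts, 2.24, 4.13 and 5.13 in CDDP, 5.06, 11.2 and 11.9 in STING-/-, and 14.6, 11.5 and 31.6 in STING-/-+CDDP. CDDP hearts were the lowest group, yet they overlapped with Saline through the second Saline heart. The change of -1.27 between CDDP and Saline (standard error 0.48, adjusted p = 0.0855) did not pass. Without that Saline heart, the one with the high atrial markers, it was -1.74 (adjusted p = 0.0225). It was -0.89 (adjusted p = 0.278) without the first Saline heart and -1.0 (adjusted p = 0.221) without the first CDDP heart. All STING-/-+CDDP hearts were above all CDDP hearts, by 1.99 on the log2 scale (adjusted p = 0.0629). Levels differed 14.1 times between the highest and the lowest of the 12 hearts.

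Ucp3 (chr7:100472990-100486432, plus strand) encodes an uncoupling protein of muscle mitochondria that rises with fatty acids. It was the most variable member, with 37.6 times more TPM in the highest heart than in the lowest. Ucp3 was at 16.9, 7.05 and 8.15 TPM in Saline and at 7.66, 14.6 and 1.57 in CDDP hearts. STING-/- hearts were at 12.04, 16.9 and 36.0, and STING-/-+CDDP hearts 39.2, 34.5 and 59.1. The 2 wild-type groups overlapped in this gene, and the last group stood above both of them. Between STING-/-+CDDP and CDDP the log2 fold change was 2.65 (6.27-fold, adjusted p = 0.0520), the largest of the 9 genes, and fell short of the threshold. An antisense gene, Gm10603, overlaps Ucp3 and had at most 0.92 TPM, and whether the counting used strand is not given in the sources used here.

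Acot1 and Acot2 encode acyl-CoA thioesterases, Acot1 in the cytosol and Acot2 in mitochondria, which release free fatty acids from coenzyme A. They lie near each other at chr12:84009490-84018371 and chr12:83987861-83993873 (both plus strand) and share sequence. Of the 50-base stretches in Acot1 transcripts, 13.6% also stood in Acot2, and of those in Acot2, 24.5% stood in Acot1, so the split of reads between them is uncertain. Acot1 was at 10.9, 21.7 and 22.1 TPM in Saline hearts and 19.1, 85.1 and 37.2 in CDDP hearts. It was at 15.0, 15.8 and 20.4 in STING-/- and at 64.4, 53.9 and 75.1 in STING-/-+CDDP hearts. The second CDDP heart held the highest level of all, and the STING-/-+CDDP hearts stood apart from the STING-/- hearts (log2 fold change 1.86, adjusted p = 0.0707). The difference of 1.14 between CDDP and Saline did not pass (standard error 0.43, adjusted p = 0.0862). It was 1.64 without the first CDDP heart, the one with the high neutrophil markers, and then passed (adjusted p = 0.0148). Without the second CDDP heart it was 0.59 (adjusted p = 0.248), and without the first Saline heart 0.82 (adjusted p = 0.274).

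Acot2 followed another order. It was at 26.6, 25.7 and 30.4 TPM in Saline, 13.5, 27.6 and 14.4 in CDDP, 26.6, 28.4 and 40.4 in STING-/-, and 31.8, 36.4 and 49.2 in STING-/-+CDDP hearts. Here the first and the third CDDP heart were the lowest of the 12, and STING-/-+CDDP lay above CDDP without overlap, by 1.09 (adjusted p = 0.0638). Of the TPM of the pair, Acot1 made up 29.1% to 45.7% in Saline and 33.5% to 36.0% in STING-/- hearts, and 58.6% to 75.5% in CDDP and 59.7% to 66.9% in STING-/-+CDDP hearts. In both genotypes every heart given cisplatin thus had a larger share of Acot1 than every heart without it, a separation that was noticed after the values were seen and was not tested. Fitted as 1 gene, the sum of the pair differed by 0.34 between CDDP and Saline (standard error 0.35, adjusted p = 0.542). The sum differed by 0.82 between STING-/-+CDDP and CDDP (adjusted p = 0.225) and by 1.07 between STING-/-+CDDP and STING-/- (adjusted p = 0.191).

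**Figure D1:**
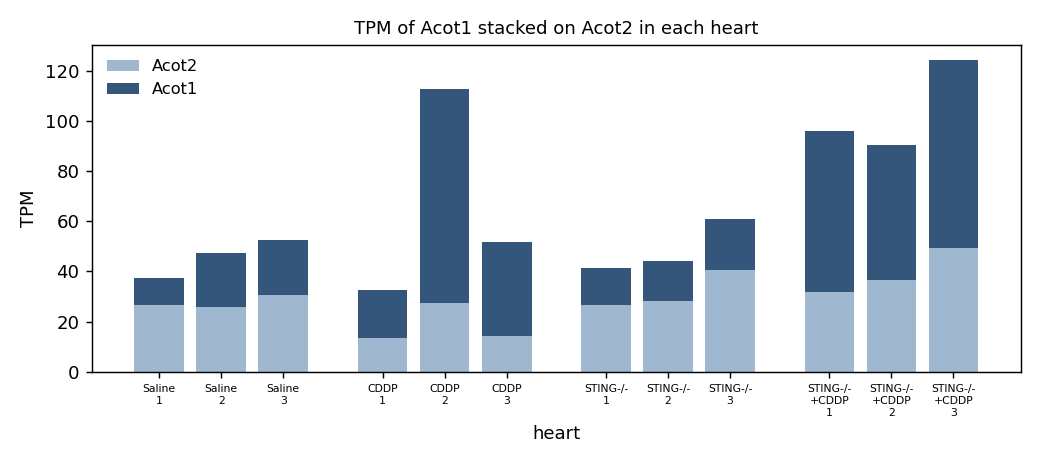
TPM of Acot2 (light) and Acot1 (dark) stacked for each of the 12 hearts, with the hearts of the 4 groups numbered 1 to 3. The dark share is 58.6% or more in each heart given cisplatin and 45.7% or less in each heart without it, and the total is highest in the third STING-/-+CDDP heart, at 124 TPM.

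Cpt1a (chr19:3322334-3385733, plus strand) encodes the carnitine palmitoyltransferase that admits long-chain fatty acids to mitochondria in liver, beside the muscle form Cpt1b that dominates in heart. Its TPM was 20.2, 25.4 and 15.1 in Saline, 19.8, 20.6 and 26.9 in CDDP, 19.5, 29.0 and 24.8 in STING-/-, and 33.8, 27.0 and 24.2 in STING-/-+CDDP hearts. Neighbouring groups overlapped throughout, and the span from lowest to highest heart, 2.23 times, was the smallest of the 9 genes. Log2 fold changes were 0.16 between CDDP and Saline (standard error 0.22, adjusted p = 0.654) and 0.32 between STING-/-+CDDP and CDDP (adjusted p = 0.439).

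Plin2 and Plin5 encode coat proteins of lipid droplets, Plin2 in most cells and Plin5 in tissues that oxidize fat, where it links droplets to mitochondria. Plin2 (chr4:86648386-86670060, minus strand) was at 52.6, 41.6 and 42.8 TPM in Saline hearts and at 98.0, 72.5 and 39.6 in CDDP hearts. Its level was 50.9, 66.0 and 56.4 in STING-/- and 89.8, 85.4 and 111 in STING-/-+CDDP hearts. The CDDP hearts spread from the lowest to the second highest of the 12. Every STING-/-+CDDP heart was above every STING-/- heart, and the difference of 0.71 on the log2 scale (adjusted p = 0.261) did not pass.

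Plin5 (chr17:56111601-56117596, minus strand) was the only member called in any comparison. It was at 55.0, 58.3 and 88.5 TPM in Saline hearts, 45.1, 69.2 and 35.5 in CDDP, 74.8, 79.8 and 97.2 in STING-/-, and 115, 155 and 155 in STING-/-+CDDP. Every STING-/-+CDDP heart was above each of the 9 other hearts, and the remaining groups overlapped in the order STING-/-, Saline and CDDP. The group means were 67.3 ± 18.5 TPM in Saline, 49.9 ± 17.4 in CDDP, 83.9 ± 11.8 in STING-/- and 142 ± 22.9 in STING-/-+CDDP (SD, n = 3). Plin5 rose by 1.53 on the log2 scale (2.88-fold, standard error 0.25, adjusted p = 0.0216) in STING-/-+CDDP against CDDP hearts. Without the first CDDP heart the value was 1.48 (adjusted p = 0.0546), without the third CDDP heart 1.31 (adjusted p = 0.0597), and without the second or the third STING-/-+CDDP heart the adjusted p was 0.0923 or 0.0997. A fit of only the 6 hearts compared gave an adjusted p of 0.0695. Against STING-/- hearts the difference was 0.75 (adjusted p = 0.201), and CDDP against Saline gave -0.44 (standard error 0.25, adjusted p = 0.237).

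Ppargc1a (chr5:51454250-51567726, minus strand) encodes PGC-1α, a coactivator of PPARs and of mitochondrial biogenesis that fasting induces. It was at 15.4, 17.5 and 19.4 TPM in Saline, 4.58, 27.9 and 21.2 in CDDP, 14.4, 16.4 and 21.3 in STING-/-, and 13.9, 14.0 and 14.1 in STING-/-+CDDP hearts. CDDP hearts held both the lowest and the highest value of the 12, and the STING-/-+CDDP hearts were nearly identical. The difference between CDDP and Saline was -0.26 (standard error 0.46, adjusted p = 0.731), and 0.46 (adjusted p = 0.117) without the first CDDP heart. The STING-/-+CDDP mean was the lowest of the groups, where it was the highest in the other 8 genes. It lay below STING-/- without overlap, by -0.27 on the log2 scale (adjusted p = 0.838). Loci annotated as overlapping Ppargc1a had at most 0.05 TPM.

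**Figure D2:**
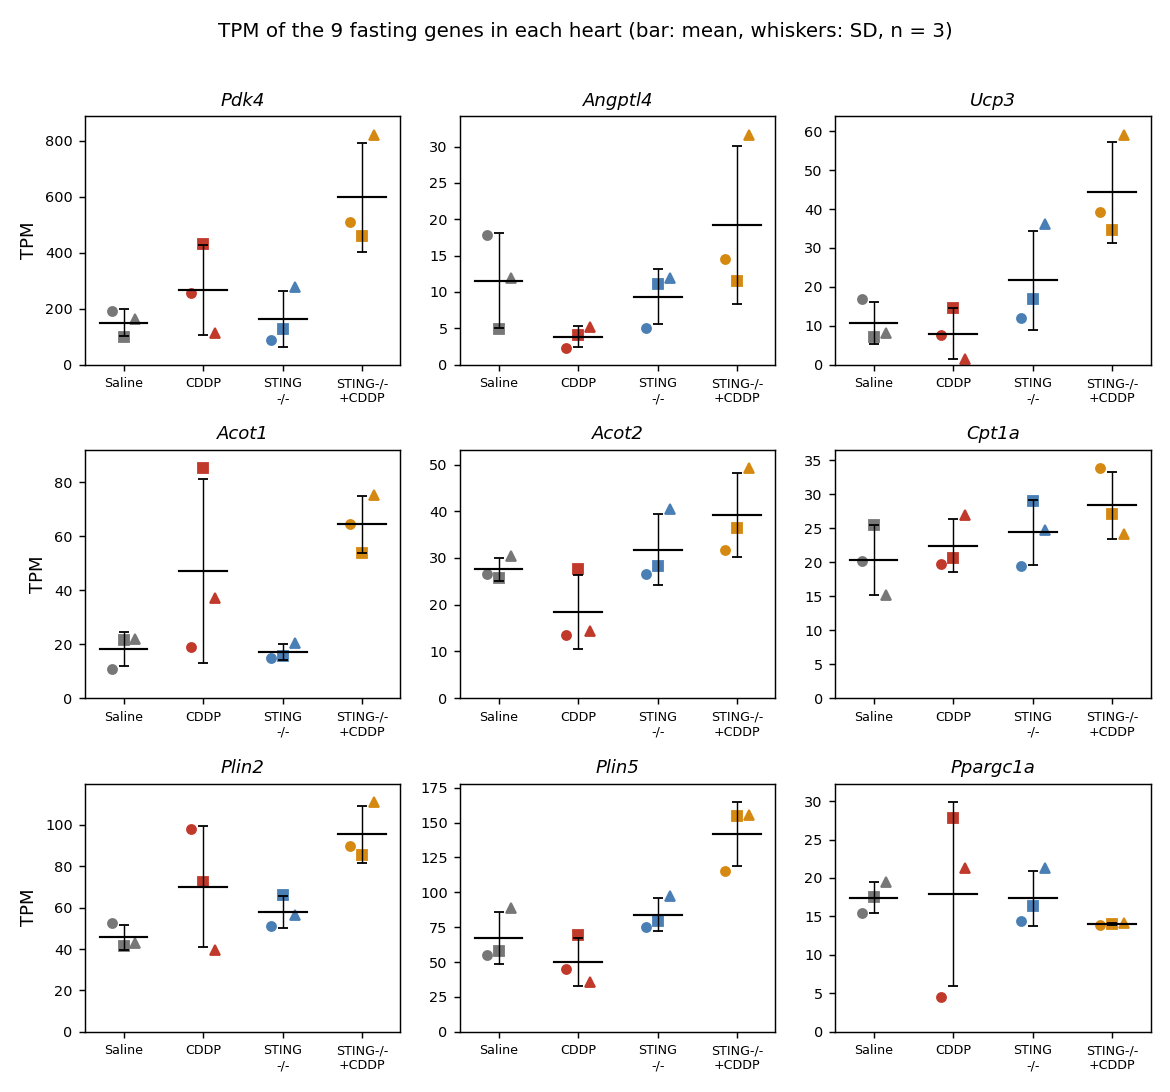
TPM of each of the 9 genes in every heart, with hearts 1, 2 and 3 of a group drawn as circle, square and triangle, horizontal bars for the mean and whiskers for the SD (n = 3). The STING-/-+CDDP hearts lie above all others for Pdk4 and Plin5, and the CDDP hearts spread widely for Pdk4, Acot1, Plin2 and Ppargc1a.

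Taking the genes by comparison, the differences between CDDP and Saline hearts ran in both directions and none was called. In all, 4 changes were positive and 5 negative on the log2 scale, with a median of -0.26 against -0.00 over all tested genes. Limma called 0 of the 9, while 18.9% of all tested genes were called. An unadjusted p under 0.05 was found for 3 of the 9 (Angptl4, Acot1 and Acot2) and for 4689 of the 13815 tested genes. For 0 of the 9 did the CDDP and Saline hearts lie apart, against 32.0% of all tested genes. In a whole heart, fewer cells of a type and less RNA per cell cannot be told apart. Among the CDDP hearts, the second was the highest for 6 of the 9 genes, and the lowest value was in the first or the third for all 9. Macrophage markers summed to between 427 and 552 TPM in Saline and between 125 and 257 in CDDP hearts, where 6 of 8 were called, all lower, and their part in the values of these genes was not tested.

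With cisplatin in both genotypes, the comparison of STING-/-+CDDP with CDDP hearts gave a larger median difference than the others. It was 1.09 on the log2 scale, against -0.09 over all tested genes, and each of the 9 lay above the latter. Plin5 was the 1 gene of 9 that was called, where 1.22% of all tested genes were called in either direction and 0.362% as higher. Pdk4, Angptl4, Ucp3, Acot2 and Plin5, 5 of 9 genes, had every STING-/-+CDDP heart above every CDDP heart, against 7.12% of all tested genes. These 5 were also those with an unadjusted p under 0.05, which 2737 of the 13815 tested genes had. Ppargc1a, at -0.03 (adjusted p = 0.981), turned positive under 4 other ways of scaling or transforming the values. Neutrophil markers summed to between 27.6 and 1120 TPM in CDDP and between 37.3 and 48.8 in STING-/-+CDDP hearts, and 0 of the 5 tested were called. Fat markers summed to 46.6 to 174 and 77.6 to 98.6 TPM, with 0 of 7 called, and cardiomyocyte markers to 23360 to 37117 and 31487 to 37536 TPM, with 0 of 8 called. In the first CDDP heart, the fat marker Cidea alone held 33.9 of the 46.6 TPM. Skeletal muscle markers summed to 4.94 to 10.9 and 8.71 to 12.8 TPM. Of their list of 8, 3 were tested and 0 called, with a median log2 fold change of 0.87, all 3 above 0 and 1 without overlap. The defining myosins Myh1, Myh2 and Myh4 were at or below 0.11, 0.03 and 0.02 TPM in all hearts. The part of these cells in the results was not tested.

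Without cisplatin, no difference between STING-/- and Saline hearts was called in these genes. The median was 0.18, against 0.00 over all tested genes, and the largest value, 0.90 for Ucp3, had an adjusted p of 1, as had the other 8. Limma called 0 of 9, where 0.0724% of all tested genes were called. An unadjusted p under 0.05 was found for 0 of 9 and for 510 of the 13815 tested genes. The groups overlapped for all 9, while 7.64% of all tested genes had groups without overlap. Within the STING-/- group the first heart was the lowest for 9 of 9 genes and the third the highest for 7. Fat markers summed to 22.4 to 112 TPM in Saline and 78.8 to 199 in STING-/- hearts. Of the 7 tested, 0 were called, all 7 were higher and 2 had no overlap, with a median of 1.71. Their part in the values of the 9 genes was not tested.

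Within STING-/- mice, the fitted level was higher with cisplatin for all 9 genes but Ppargc1a. The median was 0.75 on the log2 scale, against -0.11 over all tested genes. Limma called 0 of 9, where 0.934% of all tested genes were called. An unadjusted p under 0.05 was found for 4 (Pdk4, Acot1, Plin2 and Plin5) and for 1860 of the 13815 tested genes. Those same 4 genes had every STING-/-+CDDP heart above every STING-/- heart, against 7.28% of all tested genes, and Ppargc1a had every heart below, against 16.9%. The third STING-/-+CDDP heart was the highest of all 12 for 6 of the 9 genes. Macrophage markers summed to 396 to 592 TPM in STING-/- hearts and 166 to 326 with cisplatin. Of these 8 markers, 2 were called, both lower, and 7 were lower without overlap, with a median of -1.28. Fat markers summed to 78.8 to 199 and 77.6 to 98.6 TPM. Of the 7 tested, 0 were called, 6 were lower and 1 higher, and 2 were lower without overlap, with a median of -0.79. Of the 5 atrial markers, 0 were called and all 5 were lower, 1 without overlap, with a median of -2.11. The part of these markers in the values of the 9 genes was not tested.

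The change with cisplatin in STING-/- mice minus that in wild-type mice, fitted as an interaction, had a median of 0.91 over the 9 genes and of -0.10 over all tested genes. It was 2.18 for Angptl4 (standard error 0.67, adjusted p = 0.325), 1.19 for Plin5 (adjusted p = 0.321) and 0.91 for Acot2 (adjusted p = 0.391), the 3 genes with an unadjusted p under 0.05. Limma called 0 of 9, and 0.00724% of all tested genes, while 1615 of the 13815 tested genes had an unadjusted p under 0.05. For these genes, no difference between the genotypes in the response to cisplatin passed the test. The CDDP hearts enter 3 of these comparisons, so their values appear in each.

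**Figure D3:**
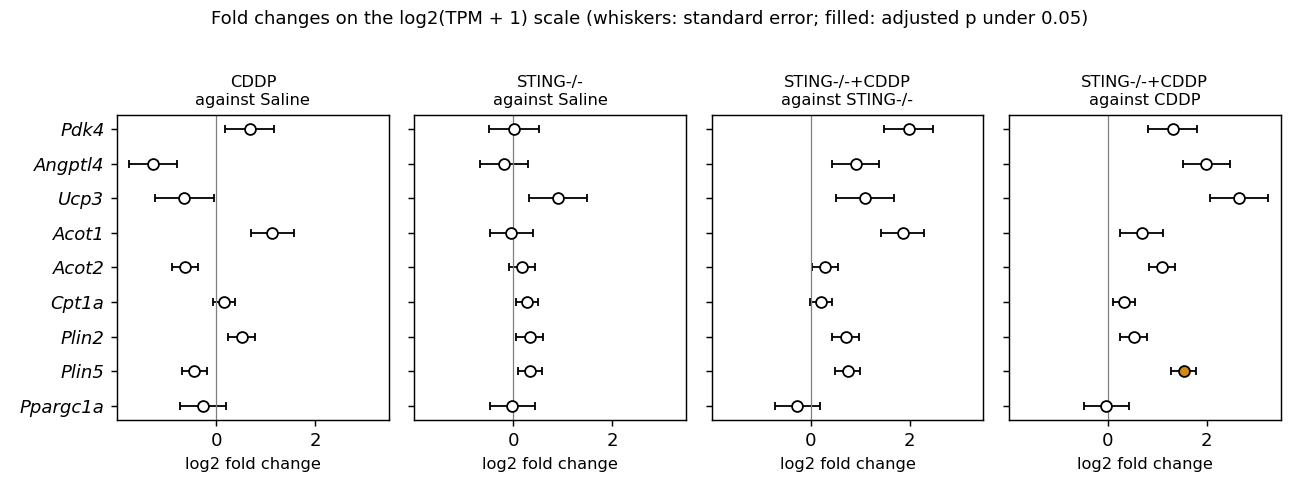
Log2 fold changes on the log2(TPM + 1) scale of the 9 genes in 4 comparisons, with whiskers for the standard error and a filled point for an adjusted p under 0.05. Points scatter about 0 between CDDP and Saline, and 8 of 9 lie right of 0 between STING-/-+CDDP and CDDP, where Plin5 is filled at 1.53.

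The receptors and coregulators behind these genes were compared next, from a list of 15, all tested. The PPAR genes themselves did not pass in either of the main comparisons with all 12 hearts. Ppara, the gene for PPARα, was at 7.38, 8.77 and 8.59 TPM in Saline and 2.92, 16.5 and 15.9 in CDDP hearts. It was at 8.14 to 12.3 in STING-/-+CDDP hearts. In Saline hearts its mean, 8.25 TPM, was below those of Ppard, 10.75, and Pparg, 12.07. Its first CDDP heart was the lowest of the 12 and the second and the third were the highest, and the log2 fold change between CDDP and Saline was 0.19 (adjusted p = 0.810). Without the first CDDP heart it was 0.90 and passed (adjusted p = 0.0184). Ppard and Pparg gave -0.20 and -0.57 in that comparison, and Ppara, Ppard and Pparg gave 0.04, -0.00 and 0.42 between STING-/-+CDDP and CDDP. In the same order of comparisons, Rxra, an RXR gene, gave -0.18 and 0.24, and Ppargc1b, the close relative of Ppargc1a, -0.53 and 0.15. Lpin1, a coactivator of PPARα, gave -0.15 and -0.20. In CDDP against Saline hearts, 3 of 15 were called, and this 20% of the list is near the 18.9% of all tested genes. Sirt1, a deacetylase that acts on PGC-1α, rose by 1.13 (adjusted p = 0.00476). Rxrg, a partner of PPARs in muscle, fell by 1.35 (adjusted p = 0.0109), and Esrra, an estrogen-related receptor that works with PGC-1α, by 0.69 (adjusted p = 0.0317). Without the first CDDP heart, Esrra gave -0.44 (adjusted p = 0.066). Rxrg was at 32.0 to 49.2 TPM in Saline and 8.18 to 20.9 in CDDP hearts. In STING-/- and STING-/-+CDDP hearts it was at 32.1 to 39.9 and 26.5 to 34.9. Rxra was lower than Rxrg in Saline hearts, at 18.6 to 19.1 TPM, and was at 13.2 to 20.7 in CDDP hearts. Between STING-/-+CDDP and CDDP hearts limma called 0 of the 15. Rxrg differed by 0.89 (adjusted p = 0.140), Esrra by 0.47 (adjusted p = 0.216) and Sirt1 by -0.96 (adjusted p = 0.0517), each without overlap. Of the 15 genes, 2 had every STING-/-+CDDP heart above every CDDP heart, against 7.12% of all tested genes. Another 2 had every STING-/-+CDDP heart below, for which no share over all tested genes was counted.

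Other PPAR targets were listed as 35 genes, of which 31 were tested. In CDDP against Saline hearts 5 of them were called, 4 higher and 1 lower. Among them, the droplet protein Plin4 rose by 1.80 (adjusted p = 0.00384) and lipoprotein lipase, Lpl, by 1.15 (adjusted p = 0.00106). Fabp3, the fatty acid binding protein of heart muscle, fell by 0.63 (adjusted p = 0.0440), and was named after its value had been seen. Lpl was at 693 to 862 TPM in Saline hearts, 1362 to 1962 in CDDP, 882 to 1029 in STING-/- and 1179 to 1410.4 in STING-/-+CDDP. Plin4 was at 26.6 to 57.5, 86.6 to 194, 40.8 to 55.5 and 76.8 to 93.8 TPM in the same order of groups. For both genes the CDDP hearts lay above the Saline hearts without overlap. The share called, 16.1% of the list, is near the 18.9% of all tested genes.

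Between STING-/-+CDDP and CDDP hearts, 2 of the 31 were called, both higher. That is 6.45% of the list, where 1.22% of all tested genes were called in either direction and 0.362% as higher. Ehhadh, an enzyme of peroxisomal fat oxidation, was at 3.33, 6.11 and 6.53 TPM in CDDP and at 12.5, 10.96 and 14.3 in STING-/-+CDDP hearts. Saline and STING-/- hearts held between 3.46 and 5 TPM, below every STING-/-+CDDP heart. It rose by 1.14 against CDDP (adjusted p = 0.0330) and by 1.34 against STING-/- (adjusted p = 0.0203). Cpt2, the inner membrane partner of Cpt1, rose by 0.83 against CDDP (adjusted p = 0.0392). The list's median in STING-/-+CDDP against CDDP was 0.31, against -0.09 over all tested genes. Among 23 tested relatives of the 9 genes, 2 were called in CDDP against Saline, 8.7% of the list against 18.9% of all tested genes. Of these, Plin4 rose and Acot13 fell by 0.42 (adjusted p = 0.0423). Cpt2 was the only relative called in STING-/-+CDDP against CDDP, 4.35% of the list against 1.22% of all tested genes. Plin4 and Cpt2 stand in both lists.

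A separate list held 20 regulators tied to fasting, glucocorticoids or insulin, such as Irs2, an insulin receptor substrate, and Fbxo32, a muscle ubiquitin ligase. In CDDP against Saline hearts 8 of the 20 were called, all higher, which is 40% of the list against 18.9% of all tested genes. The median of the list was 0.86 against -0.00 over all tested genes. The lists were chosen with earlier results of these data known, so these shares and medians only describe the lists. Fkbp5, a chaperone induced by glucocorticoids, rose by 2.55 (adjusted p = 0.0279), Gadd45g, a stress gene, by 1.95 (adjusted p = 0.0296), Irs2 by 1.83 (adjusted p = 0.00189) and Fbxo32 by 1.74 (adjusted p = 0.00293). Fkbp5 gave 1.44 (adjusted p = 0.0185) without the first Saline heart, and it did not pass without the second (adjusted p = 0.0593) or the third CDDP heart (adjusted p = 0.0779). Gadd45g was at 182, 23.7 and 66.2 TPM in CDDP hearts and 13.3 to 23.4 in Saline hearts. It gave 1.22 (adjusted p = 0.0616) without the first CDDP heart, the one with the high neutrophil markers, and did not pass without the third CDDP heart or without the first or the third Saline heart either. Irs2 was at 3.43 to 5.46 TPM in Saline, 9.81 to 25.5 in CDDP, 3.33 to 3.50 in STING-/- and 4.36 to 4.51 in STING-/-+CDDP hearts. In STING-/-+CDDP against CDDP hearts it fell by 1.76 (adjusted p = 0.0216), the 1 gene of 20 called (5% of the list, against 1.22% of all tested genes), and the median of the list was -0.46, against -0.09 over all tested genes. The 9 genes had a median of 1.09 in that same comparison. The medians of the 2 lists lay on opposite sides of 0 there, and the contrast between the lists was not tested.

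**Figure D4:**
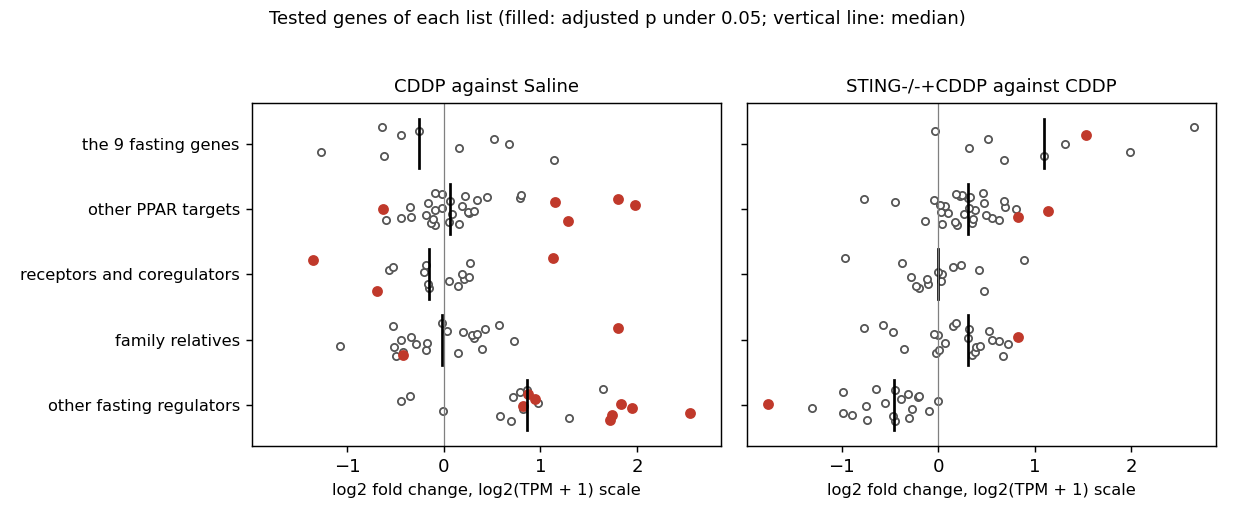
Log2 fold changes of the tested genes in 5 lists, for CDDP against Saline (left) and STING-/-+CDDP against CDDP (right), with filled points for an adjusted p under 0.05 and a vertical line for each list's median. On the left the medians are -0.26 for the 9 genes and 0.86 for the other fasting regulators, and on the right 1.09 and -0.46, and some genes stand in more than 1 list.

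Over the 12 hearts, the genes whose levels were most like the mean standardised profile of the 9 were Smpd2 (Pearson r = 0.920), Slc25a34 (r = 0.916), Mlycd (r = 0.915), Chrna2 (r = 0.913) and Cpt2 (r = 0.904). The hearts share 4 groups, so these values describe likeness only. Mlycd, malonyl-CoA decarboxylase, was at 47.9 to 61.9 TPM in Saline, 45.7 to 85.3 in CDDP, 47.7 to 58.1 in STING-/- and 81.2 to 105 in STING-/-+CDDP hearts. Slc25a34, a mitochondrial carrier, was at 91.4 TPM or more in each STING-/-+CDDP heart and in the second CDDP heart, and at most 57.4 in the rest. Chrna2 lay at or below 2.64 TPM. None of the 5 but Cpt2 was called in STING-/-+CDDP against CDDP.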

How the data were processed

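RNA-seq of 12 hearts was analysed, 3 in each group, grouped by genotype and treatment in the labels. A shared number does not mark a shared animal. TPM for each gene were deposited by the authors. The submitters' processing notes name fastp, HISAT, RSEM and the build GRCm38.p5. Means of the 4 groups, also deposited, were left aside. TPM keep no read counts, so neither depth nor intervals from it could be given, and count methods were not used.

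Genes reaching a TPM of 1 in 3 or more hearts, 13815 in all, were fitted as log2(TPM + 1) with limma 3.58.1 (R 4.3.3; eBayes with a trend, 8 residual degrees of freedom), two-sided, with Benjamini-Hochberg adjustment over these genes and a threshold of 0.05. The procedure was tested on simulated data. All 9 genes passed the filter, so the exact permutation test set aside for others (smallest p of 0.10 for 3 against 3) was not needed. The 9 genes and all lists were chosen with earlier results of these data known. Named from the lists were 7 receptors and coregulators and, for each list and each of 2 comparisons, up to 4 called genes with the largest change. Some of the latter are not reported here. Names, positions and transcripts came from GENCODE M21 (GRCm38), and shared sequence was counted in stretches of 50 bases. As alternatives, a pseudocount of 0.1 was tried, no filter, a minimum TPM of 5, only the groups compared, scaling by median of ratios, quantile normalization, TPM without mitochondrially encoded genes, eBayes without a trend, the replicate number as a block and each heart left out. A fit of Acot1 and Acot2 summed was chosen after seeing the data. Plots were made in Python 3.11.15 (matplotlib 3.10.9).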

Additional observations from a re-analysis of the deposited data

Results flagged for a closer look

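Cpt2, the carnitine palmitoyltransferase of the inner mitochondrial membrane, had values on opposite sides with cisplatin in the 2 genotypes, and neither difference passed. It gave -0.34 on the log2 scale in CDDP against Saline (adjusted p = 0.165) and 0.36 in STING-/-+CDDP against STING-/- (adjusted p = 0.367). Every CDDP heart (60.8 to 88.7 TPM) was below every Saline heart (89.1 to 94.7 TPM), and every STING-/-+CDDP heart (122 to 141 TPM) was above every STING-/- heart (89.6 to 122 TPM), in both cases with only a small gap between the nearest hearts. The interaction was 0.69 on the log2 scale (standard error 0.23) and did not pass in limma (unadjusted p = 0.0107, adjusted p = 0.338).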

How the results depend on the processing

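In STING-/-+CDDP against CDDP, 1 of the 9 genes was called. The count was 0 without a filter or with only the groups compared, 2 with a TPM of at least 5, with quantile normalization or without mitochondrially encoded genes, 3 with the median of ratios (Angptl4, Plin5 and Ucp3), and 0 to 3 with each heart left out (0 without the first or the third CDDP heart or the second or the third STING-/-+CDDP heart, 2 without the second Saline heart, 3 without the second CDDP heart). Plin5 stayed called in 15 of 21 alternatives (adjusted p 0.00896 to 0.0997), with log2 fold changes of 1.31 to 1.79. In CDDP against Saline the count was 0 to 1 with a heart left out: Angptl4 passed without the second Saline heart, and Acot1, Acot2 and Plin2 without the first, the second and the third CDDP heart. In STING-/-+CDDP against STING-/- it was 1 (Acot1) with only the groups compared, and 0 to 1 with a heart left out (Acot1 without the first or second CDDP heart). Of the other genes, Ehhadh, Cpt2 and Irs2 stayed called in 11, 8 and 15 of 21 alternatives in STING-/-+CDDP against CDDP (adjusted p with a heart left out 0.0328 to 0.128, 0.0173 to 0.148 and 0.00137 to 0.0946), and Esrra, Acot13, Fkbp5 and Gadd45g in 15, 6, 17 and 15 in CDDP against Saline, where Ppara passed without the first CDDP heart. The causes were not tested. The replicate block gave 1 called gene, Plin5 (adjusted p = 0.0442), in STING-/-+CDDP against CDDP and 0 in the other comparisons, as without it, while Ehhadh and Cpt2 there and Acot13 in CDDP against Saline no longer passed. Same-numbered hearts are different animals. Their deviations from the group means correlated between -0.333 and 0.261, and those of differently numbered hearts between -0.225 and 0.431. Whether a number marks a shared batch was not tested.

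Signs turned for genes near 0. Ppargc1a became 0.00 with a pseudocount of 0.1, 0.09 with the median of ratios, 0.10 with quantile normalization and 0.05 without mitochondrially encoded genes in STING-/-+CDDP against CDDP. Its interaction became 0.02, 0.12, 0.12 and 0.04 in the same order, and its STING-/- against Saline value 0.01 without mitochondrially encoded genes. In STING-/-+CDDP against CDDP, Ppard became 0.10, 0.12 and 0.07 under the last 3. Acot1 summed with Acot2 gave 0.09 in STING-/- against Saline. With each heart left out, CDDP against Saline ranged from -1.22 to 0.08 for Ucp3, -0.03 to 0.33 for Cpt1a, -0.72 to 0.46 for Ppargc1a, -0.18 to 0.90 for Ppara and -0.54 to 0.38 for Lpin1. STING-/-+CDDP against CDDP ranged from -0.75 to 0.43 for Ppargc1a, -0.67 to 0.41 for Ppara, -0.11 to 0.14 for Ppard, -0.32 to 0.43 for Ppargc1b and -0.73 to 0.19 for Lpin1. STING-/- against Saline ranged from -0.45 to 0.38 for Pdk4, -0.67 to 0.18 for Angptl4, -0.35 to 0.12 for Acot1, -0.00 to 0.29 for Acot2 and -0.17 to 0.10 for Ppargc1a. The interaction ranged from -0.12 to 0.24 for Cpt1a, -0.16 to 0.48 for Plin2 and -0.74 to 0.45 for Ppargc1a. Scaling by the median of ratios moved the median of all tested genes in STING-/-+CDDP against STING-/- from -0.107 to 0.00714.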
